A study of Mus musculus with 28 samples.

Results

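The collagen genes encode the structural proteins of the extracellular matrix. They were taken as the protein-coding genes of GRCm38 whose symbol is Col, a number, the letter a and a number with nothing after it, which gave 44 of the 21887 coding genes placed on an assembled mouse chromosome. By textbook structure, 11 of them form fibrils, 6 are the type IV chains of basement membranes and 27 belong to other classes. They were read from 1 deposited list of intervals enriched for H3K27ac, histone H3 acetylated at lysine 27 and found at promoters and enhancers in use, as mapped by chromatin immunoprecipitation and sequencing (ChIP-seq). The chromatin came from WT embryos at E10.5, from cranial neural crest cells that had been dissected and then collected by flow sorting. Reads of 4 libraries, from the FNP, Mx, Md and PA2 subpopulations with 1 library each, had been pooled before the calling. Of the 28 libraries of the series, the other 24 (other marks, an earlier age, other genotypes and inputs) were not analysed here.

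Collagen chains share long Gly-X-Y repeats with which the chains wind together into a triple helix. Fibrillar collagens give tissues tensile strength, type IV collagens build the sheet-like network under epithelia and around vessels, and the remaining classes decorate fibrils, form beaded filaments, short networks or anchoring fibrils, or span the cell membrane. The cranial neural crest gives rise to most cartilage, bone and connective tissue of the face, and at this age its cells are still largely undifferentiated mesenchyme. The genes for type IV chains are known to lie in head-to-head pairs that are transcribed outward from shared or closely spaced promoters.

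The list held 125826 intervals with a median width of 271 bp and a median score of 111. The score is the authors' deposited value for each interval. It depends on how many reads were pooled and runs from 31 to 3194311 in this list. It serves here to describe and rank intervals within the list. No interval carries a population, no value has a replicate, and the sequencing depth is unknown, so no test between populations or classes was possible and all comparisons below are descriptions. A gene was called marked when an interval overlapped the 1 kb on either side of one of its annotated ends by at least 1 bp. Because members and lists were chosen with earlier results known, shares of members are given beside the share of all protein-coding genes and are not tested.

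Collagen genes were marked at an end in 35 of 44 cases (79.5%), against 65.0% of all protein-coding genes. They are long genes, with a median length of 114 kb against 17.2 kb for all protein-coding genes, and genes over 30 kb were marked more often than shorter ones. Among genes of 100 to 200 kb, 16 of 18 collagen genes were marked, against 81.1% of all genes. Among genes over 200 kb the collagen count was 7 of 8, against 78.5%, and among those under 30 kb it was 8 of 9, against 58.2%. Between 30 and 100 kb it was 4 of 9, against 77.3%. The collagen share was thus above that of genes of like length in 3 of the 4 bands and below it from 30 to 100 kb, with at most 18 genes in a band. An interval lay at both ends of 5 collagen genes, against 9.91% of all genes.

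The scores at collagen gene ends were low. The best score at an end had a median of 696 over the 35 marked collagen genes (quartiles 253 and 1953, range 53 to 4083), against 2494 over the 14235 marked protein-coding genes (quartiles 704.5 and 4793.5). None of the collagen genes exceeded the upper quartile of all marked genes, 29 lay below their median and 18 below their lower quartile. A score of at least 1000 was reached by 14 of 44 collagen genes, against 45.5% of all genes. The medians were below those of all genes in each of the 4 length bands, at 540 against 2453 under 30 kb, 2151 against 2950 from 30 to 100 kb, 749 against 2199 from 100 to 200 kb and 805 against 1287 over 200 kb. The widest interval at an end was of like width in both groups, with a median of 887 bp in collagen genes and 840 bp in all marked genes. How width relates to score from gene to gene was not computed.

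**Figure D1:**
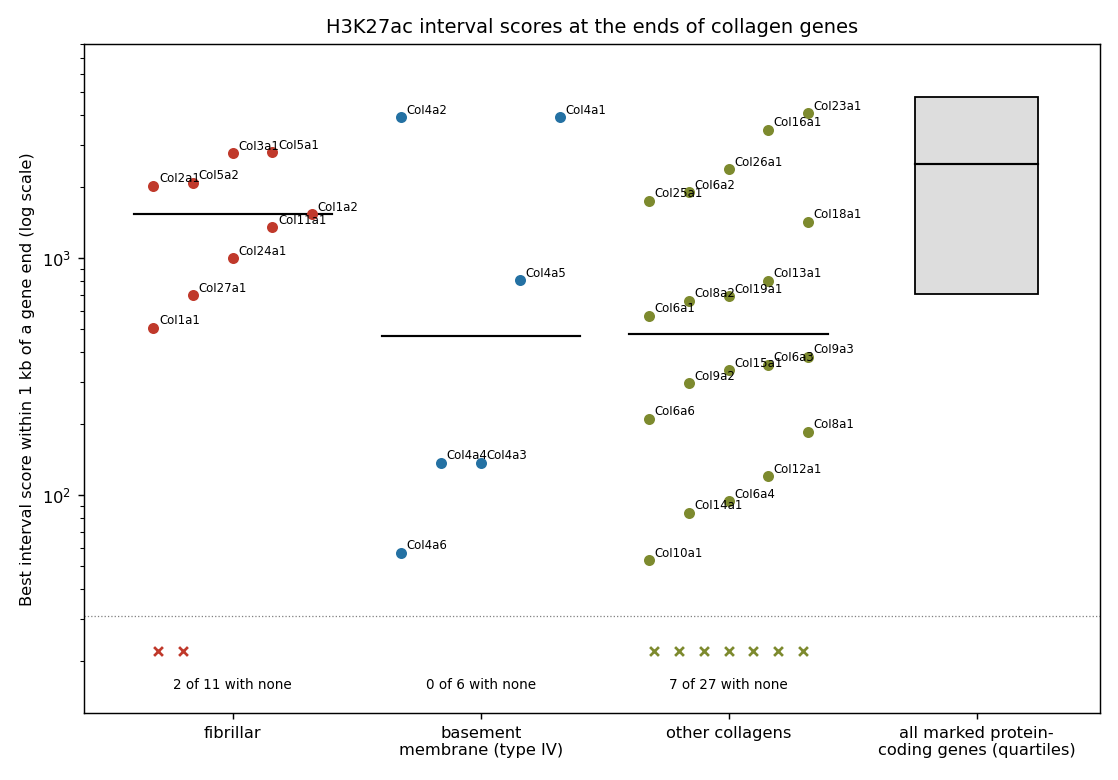
Best H3K27ac interval score within 1 kb of a gene end (log scale) for each collagen gene by class, with crosses for genes with no interval there and black lines for class medians. The box gives the quartiles of all 14235 marked protein-coding genes, and the dotted line the lowest score in the list (31). The medians are 1532 for fibrillar, 471 for type IV and 477.5 for other collagens, all below the 2494 of all marked genes.

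By class, 9 of 11 fibrillar, all 6 type IV and 20 of 27 other collagen genes were marked, against 65.0% of all protein-coding genes. Fibrillar genes had the highest class median, 1532, with 6 of 11 at 1000 or more, although single genes of both other classes scored above the fibrillar maximum of 2798. Type IV genes had a median of 471 and 2 of 6 at 1000 or more, and the other classes a median of 477.5 and 6 of 27. Over all protein-coding genes, 45.5% reached 1000. The type IV values include Col4a5 and Col4a6 on the X chromosome, where marked genes had a median of 1369, against 2574 on autosomes. The marked gene with the most distant interval was Col19a1, at 0.774 kb from its end, and the unmarked gene with the closest was Col7a1, at 2.87 kb. An interval lay at the 5′ end of 26 of the 35 collagen genes with a listed strand, against 62.0% of all genes with one. At the 3′ end it was 5 of 35, against 12.8%. The strand of the other 9, Col1a1, Col2a1, Col4a3, Col5a2, Col9a3, Col12a1, Col14a1, Col22a1 and Col26a1, was not used here, because the promoter table matched 35 members.

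Among the fibrillar genes, Col5a1 and Col3a1 carried the highest scores. Col5a1 and Col5a2, which encode the type V chains that start fibril assembly, had best end scores of 2798 and 2073. Col3a1, the chain of reticular fibrils, had 2770 in a single interval of 1715 bp over its start. The type I chains, the main collagen of bone, skin and tendon, differed, with 1532 at Col1a2 and 509 at Col1a1. Col1a2 carried 3 intervals within 1 kb of its start, and its listed start base lay in the gap between those with scores of 586 and 1532. The interval at Col1a1 was 1088 bp wide.

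The cartilage chains of the fibrillar class were also marked in part. Col2a1, the main cartilage collagen, had a best end score of 2012 in an interval of 2216 bp. Col11a1, whose chain sets the width of cartilage fibrils, had 1347. Col11a2, another type XI chain, had no interval within 1 kb of an end, and held 1 interval with a score of 54 inside the gene. Col27a1, a chain of cartilage, had 696 at its annotated end and 2150 inside the gene, in an interval over its listed start. Col24a1, expressed in forming bone, had 998. Col5a3, the remaining type V chain, had none at an end and 3 intervals inside, with scores up to 470.

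The promoter windows of Col1a2 and Col3a1 are shown because these 2 fibrillar genes had high end scores over windows of unlike composition. Each runs from 250 bases before to 50 after the start and comes from the RefSeq table of GRCm38.p6, at chr6:4505368-4505667 for Col1a2 and chr1:45311288-45311587 for Col3a1, both on the plus strand. Capitals mark matches, on either strand, to the CCAAT box, to the Sp1-type box GGGCGG or to the TATA-type box TATAAA. Col1a2 held 2 CCAAT and 2 GGGCGG matches and 13 CpG dinucleotides, whereas Col3a1 held 1 TATAAA match and 0 CpG dinucleotides.
Col1a2: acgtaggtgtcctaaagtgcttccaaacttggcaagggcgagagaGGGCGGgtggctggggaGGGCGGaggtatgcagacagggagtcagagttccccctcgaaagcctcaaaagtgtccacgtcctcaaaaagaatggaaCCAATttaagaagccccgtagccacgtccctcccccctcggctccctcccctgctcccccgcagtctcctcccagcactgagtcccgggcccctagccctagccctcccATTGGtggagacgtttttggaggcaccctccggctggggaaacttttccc
Col3a1: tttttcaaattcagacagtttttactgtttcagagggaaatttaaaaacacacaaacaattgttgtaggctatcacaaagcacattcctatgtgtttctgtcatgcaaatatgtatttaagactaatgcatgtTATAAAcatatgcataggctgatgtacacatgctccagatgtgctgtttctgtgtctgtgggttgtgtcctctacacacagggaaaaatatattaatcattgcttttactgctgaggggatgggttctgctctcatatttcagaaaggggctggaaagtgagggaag

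The type IV genes were marked at all 6 of their facing ends, but at very different scores. Facing ends at most 2 kb apart, or overlapping by any length, were also common elsewhere. Of 1043 other head-to-head neighbours, 94.6% had an interval at either facing end and 86.6% at both, with a median best score of 3755 (quartiles 2338 and 5951). Col4a1 and Col4a2, the chains of nearly every basement membrane, share 85 bp at their annotated ends, and 1 interval of 1663 bp with a score of 3918 covered both (chr8:11311845-11313507). Col4a3 and Col4a4, chains of the mature kidney filter, lung and inner ear, share 114 bp, and 1 interval of 696 bp with a score of 137 covered both (chr1:82586514-82587209). Col4a5 and Col4a6 on the X chromosome lie 1.27 kb apart and had separate intervals. Col4a5, which joins networks with the kidney chains or with Col4a6, had a score of 805, and Col4a6, a chain of epithelial and smooth muscle basement membranes, had 57. The Col4a1 and Col4a2 interval therefore lay close to the median of other head-to-head neighbours, and the other 2 pairs lay below their lower quartile. Those neighbours were taken over all chromosomes. Marked genes on the X chromosome had a median best end score of 1369 (quartiles 628 and 2381), against 2574 on autosomes.

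The pairs also differed inside the genes. Col4a2 held 21 intervals and Col4a1 held 14, at 1.54 and 1.22 per 10 kb. Col4a4 held 11 and Col4a3 held 3, at 0.794 and 0.222 per 10 kb. Col4a5 and Col4a6 held 1 each, the interval at the facing end, over 213.9 and 308.7 kb. Intervals were sparse on the X chromosome as a whole. The median over its protein-coding genes was 0.0433 inside per 10 kb, against 0.649 on autosomes, and 46.5% of its genes were marked at an end. The part of the chromosome in the low counts and scores of Col4a5 and Col4a6 was not tested. Beside the ends, the highest scores within these genes were 854 in Col4a2, in an interval of 1761 bp about 49.2 kb from the start, and 515 in Col4a1, 32.9 kb from the start. In Col4a4 the highest inner score was 216, above the 137 at its start.

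**Figure D2:**
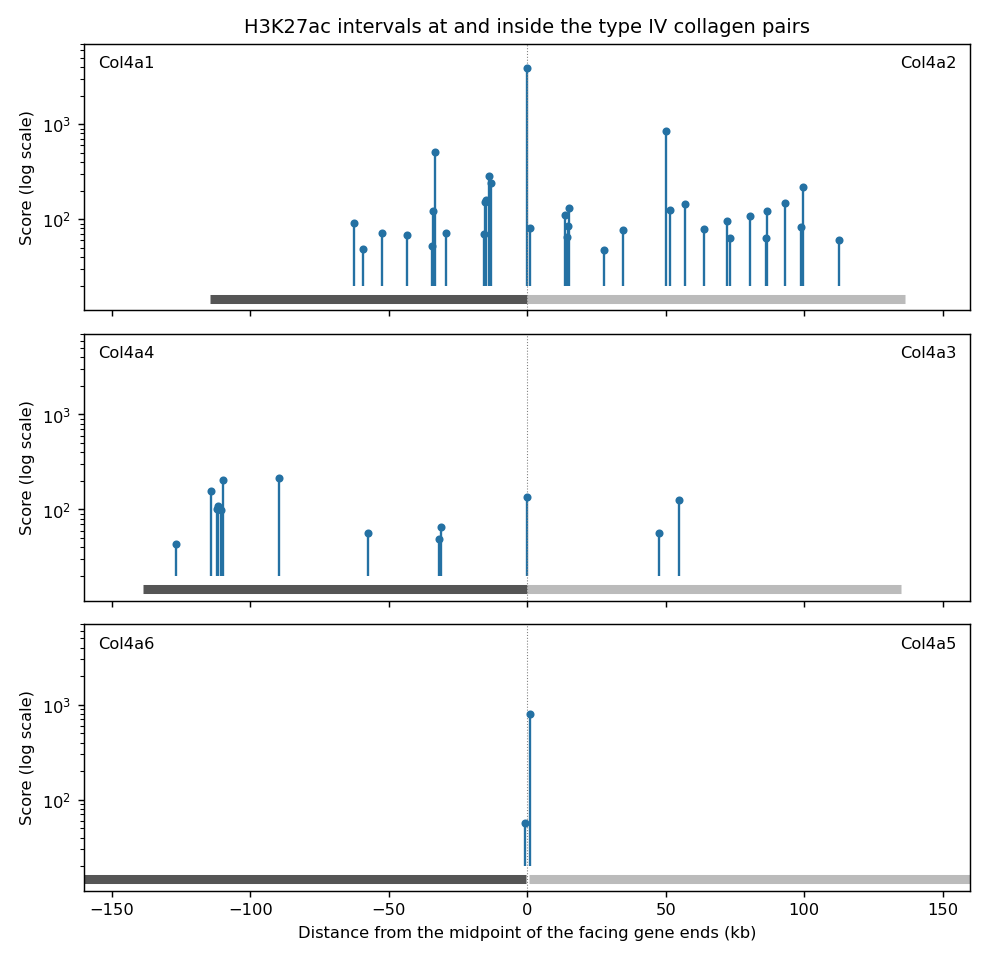
H3K27ac intervals at the ends of and inside the 3 head-to-head type IV pairs. The score (log scale) is plotted against the distance in kb from the midpoint of the facing gene ends, with bars for the annotated genes, which run past the axis for Col4a6 and Col4a5. The shared interval scores 3918 at Col4a1 and Col4a2 and 137 at Col4a4 and Col4a3, and Col4a6 and Col4a5 show 57 and 805 at their ends and no other interval.

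The promoter windows of the pairs are shown because they face each other and carry such different scores. Coordinates are GRCm38.p6, the windows run as above, and capitals again mark those 3 motifs on either strand. The windows are chr8:11312777-11313076 (minus strand) for Col4a1, chr8:11312555-11312854 (plus) for Col4a2, chr1:82586800-82587099 (minus) for Col4a4, chrX:141474027-141474326 (minus) for Col4a6 and chrX:141475169-141475468 (plus) for Col4a5. The Col4a1 and Col4a2 windows overlap, with listed starts 21 bp apart, and held 37 and 33 CpG dinucleotides. The Col4a4 window held 14 CpG and none of the 3 motifs. The Col4a5 window held 11 CpG with 1 CCAAT and 1 GGGCGG match, and the Col4a6 window 3 CpG and 1 GGGCGG match.
Col4a1: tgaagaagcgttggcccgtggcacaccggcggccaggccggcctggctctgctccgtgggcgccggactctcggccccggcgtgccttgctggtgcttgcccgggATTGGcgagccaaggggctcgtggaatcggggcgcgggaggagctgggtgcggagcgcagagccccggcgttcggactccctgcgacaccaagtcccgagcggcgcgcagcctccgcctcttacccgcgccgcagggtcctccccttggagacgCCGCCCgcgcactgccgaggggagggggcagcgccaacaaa
Col4a2: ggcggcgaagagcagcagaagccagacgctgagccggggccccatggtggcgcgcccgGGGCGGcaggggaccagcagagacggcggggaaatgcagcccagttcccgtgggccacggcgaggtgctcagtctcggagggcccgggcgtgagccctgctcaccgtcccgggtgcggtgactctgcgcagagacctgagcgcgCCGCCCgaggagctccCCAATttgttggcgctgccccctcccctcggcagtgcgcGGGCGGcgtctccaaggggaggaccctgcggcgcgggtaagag
Col4a4: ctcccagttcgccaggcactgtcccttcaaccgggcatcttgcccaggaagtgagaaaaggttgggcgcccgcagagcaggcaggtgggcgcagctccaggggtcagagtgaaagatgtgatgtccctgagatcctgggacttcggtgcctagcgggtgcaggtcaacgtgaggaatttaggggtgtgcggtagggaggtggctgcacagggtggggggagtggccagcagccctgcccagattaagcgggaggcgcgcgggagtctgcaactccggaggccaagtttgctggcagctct
Col4a6: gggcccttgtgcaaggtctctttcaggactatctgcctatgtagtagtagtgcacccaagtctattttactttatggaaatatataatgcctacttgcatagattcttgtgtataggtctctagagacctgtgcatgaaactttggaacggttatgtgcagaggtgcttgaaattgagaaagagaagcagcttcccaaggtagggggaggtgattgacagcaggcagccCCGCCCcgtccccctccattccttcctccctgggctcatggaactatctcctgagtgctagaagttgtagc
Col4a5: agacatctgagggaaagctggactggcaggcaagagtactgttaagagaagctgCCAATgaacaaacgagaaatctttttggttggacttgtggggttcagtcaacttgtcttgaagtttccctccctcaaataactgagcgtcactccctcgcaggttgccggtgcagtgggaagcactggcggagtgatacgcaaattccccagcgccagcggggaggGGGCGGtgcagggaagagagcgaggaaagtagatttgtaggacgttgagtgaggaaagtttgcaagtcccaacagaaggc

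In the other classes, high scores were spread over several structural groups. Col23a1, a transmembrane collagen, had the highest end score of all collagen genes at 4083, but this interval lay past its 3′ end and within 1 kb of an end of Phykpl, and the score at its 5′ end was 2118. It was the only collagen gene that shared an end interval with a protein-coding gene that is no collagen. Col16a1 had 3478 and Col26a1 had 2368. Col25a1, a transmembrane collagen of neurons and muscle innervation, had 1744, and Col13a1, which stands at cell adhesions and neuromuscular junctions, had 465 at its 5′ end and 802 at its 3′ end. The lowest scores belonged to Col10a1 with 53, Col14a1 with 84 and Col6a4 with 94. Col10a1 is the collagen of hypertrophic cartilage, which forms later in development. Col6a4 was marked at its 3′ end alone.

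The type VI chains, which build the beaded filaments around cells, were marked unevenly. Col6a2 had 1894, Col6a1 571 and Col6a3 355, the 3 chains that assemble in most tissues. Their later-described relatives had 210 at Col6a6, 94 at Col6a4 and no interval at an end of Col6a5. The multiplexins of basement membrane zones were marked, at 1422 for Col18a1, the source of endostatin, and 336 for Col15a1. The short-chain collagens Col8a2 and Col8a1, of corneal and vascular matrices, had 662 and 185. Unmarked at both ends, besides Col5a3 and Col11a2, were Col6a5, Col7a1, Col9a1, Col17a1, Col20a1, Col22a1 and Col28a1. Of these, Col7a1 (anchoring fibrils of skin) had no interval at all, and Col17a1 (a hemidesmosome protein of epithelia) had 4 inside with a best score of 301.

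Some genes with unmarked ends had intervals at a listed start inside the gene. Col9a1, a chain of the type IX collagen on cartilage fibrils, has 2 listed starts, of which the upstream one gives the long form known from cartilage and the downstream one the short form known from the eye. No interval lay within 1 kb of the upstream start. An interval of 1329 bp with a score of 1001 covered the downstream start (chr1:24194786-24196114). Col18a1 also has 2 listed starts. The upstream one, known for the short form of most basement membranes, lay 0.068 kb from the interval with a score of 1422, and the downstream one, known for the long forms of liver, had none within 1 kb. Col20a1, a fibril-associated chain, had an interval with a score of 90 within 1 kb of its listed start. In all, 29 of 38 listed collagen starts had an interval within 1 kb, against 65.0% of all listed starts. By gene the count was 28 of 35, against 65.5%. The 2 windows of Col9a1 are shown because they separate an unmarked from a marked start of the same gene, at chr1:24177360-24177659 (upstream) and chr1:24194953-24195252 (downstream), both on the plus strand. The upstream window held 0 CpG and none of the motifs, and the downstream window 1 CpG and 1 CCAAT match.
Col9a1 upstream start: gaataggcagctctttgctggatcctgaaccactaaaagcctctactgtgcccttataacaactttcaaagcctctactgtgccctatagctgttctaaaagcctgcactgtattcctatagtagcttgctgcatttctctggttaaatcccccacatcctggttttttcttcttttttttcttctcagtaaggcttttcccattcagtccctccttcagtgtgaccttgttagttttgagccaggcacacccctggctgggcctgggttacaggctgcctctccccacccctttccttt
Col9a1 downstream start: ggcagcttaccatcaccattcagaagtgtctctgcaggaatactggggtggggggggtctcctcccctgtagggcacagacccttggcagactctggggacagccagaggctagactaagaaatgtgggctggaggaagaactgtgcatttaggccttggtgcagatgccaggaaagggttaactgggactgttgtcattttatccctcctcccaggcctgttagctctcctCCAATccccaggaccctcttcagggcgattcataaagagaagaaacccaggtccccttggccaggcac

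Intervals lay inside 43 of 44 collagen genes, against 73.1% of all protein-coding genes. By length band the counts were 9 of 9 under 30 kb, against 62.5%, 8 of 9 from 30 to 100 kb, against 91.3%, 18 of 18 from 100 to 200 kb, against 97.5%, and 8 of 8 over 200 kb, against 98.3%. Gene length and the number inside rose together, with a Spearman rho of 0.596 over the 44 collagen genes and 0.691 over all protein-coding genes, so counts per 10 kb are given. The median was 0.876 intervals per 10 kb in collagen genes (quartiles 0.503 and 1.22), against 0.615 in all protein-coding genes (quartiles 0 and 1.31). In 30 of 44 collagen genes the number per 10 kb was above the middle of genes in the same length band. The medians by band were 1.19 against 0.690 under 30 kb, 0.875 against 0.540 from 30 to 100 kb, 0.963 against 0.637 from 100 to 200 kb, and 0.492 against 0.539 over 200 kb. By class the median was 0.925 in fibrillar genes, 0.508 in type IV genes and 0.877 in other genes, from 83, 51 and 336 intervals. The type IV genes include Col4a5 and Col4a6 on the X chromosome, where intervals were sparse. The order of fibrillar and other genes depended on the measure. With intervals near the ends left out the medians were 0.666 in fibrillar, 0.435 in type IV and 0.877 in other genes, and over the summed length of each class the numbers per 10 kb were 0.794, 0.487 and 1.00. Intervals covered 3.03% of the summed length of collagen genes, against 2.71% of that of all protein-coding genes.

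Col23a1 held the most intervals inside. It held 59 intervals over 294.2 kb and Col25a1 held 51 over 419.5 kb. Col6a6, with an end score of 210, held 28, and its 2.02 per 10 kb stood at the 99.1 percentile of its length band. Col26a1 held 26 and Col24a1 held 24. Relative to length, Col8a2 led with 3.63 per 10 kb, followed by Col10a1 with 2.81, where the gene is 7.11 kb long and held 2 weak intervals, then Col2a1 with 2.06, Col6a6 with 2.02 and Col23a1 with 2.01. Col22a1, a chain of tissue junctions, held 5 over 355.2 kb, and its nearest interval to an end was 94.7 kb away. Over the 35 marked collagen genes, the end score and the number per 10 kb away from the ends had a Spearman rho of 0.219. Over all marked genes it was -0.145. Both are across genes of 1 list, which share its depth, and are descriptions.

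**Figure D3:**
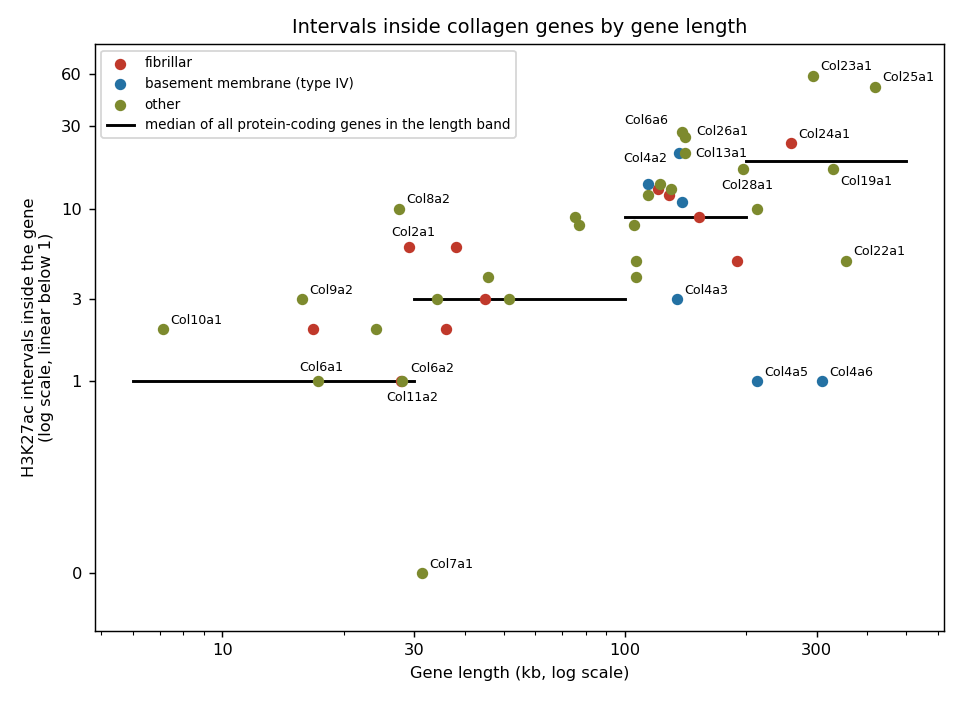
Number of H3K27ac intervals inside each collagen gene (log scale, linear below 1) against gene length (kb, log scale), coloured by class, with black lines for the median of all protein-coding genes in each length band. Col23a1 and Col25a1 reach 59 and 51, above the median of 19 for genes over 200 kb, while Col4a5 and Col4a6 hold 1 each and Col7a1 holds 0.

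Intervals inside the genes and over 1 kb from both ends were mostly weak. There were 427 of them in 39 of 44 collagen genes, against 41.2% of all genes with any. That share is over genes of all lengths and was not computed by length band. Over all genes the median number of such intervals per 10 kb was 0 under 30 kb, and 0.324, 0.560 and 0.511 in the 3 longer bands. In collagen genes the medians were 0.595, 0.875, 0.892 and 0.453. The 427 intervals had a median score of 99, against 99 over all protein-coding genes. Scores of at least 1000 were reached by 9 (2.11%), against 4.65% over all genes, and these 9 lay in 4 genes. Col2a1 held 4, with scores of 1186, 1408, 1054 and 1145 between 97989339 and 98002248 on chromosome 15. Intervals covered 20.4% of Col2a1, at the 91.0 percentile of genes under 30 kb. Col26a1 held 3, with scores of 1443, 1216 and 1073. The others were the intervals over listed starts of Col27a1 and Col9a1. In 7 of the 35 marked genes the highest score lay inside the gene: Col27a1, Col12a1, Col9a2, Col6a6, Col4a4, Col6a4 and Col14a1. That share was not computed for all marked genes, so whether it is unusual is not known. Of the 427 intervals, 0 lay within 1 kb of an end of another protein-coding gene and 12 within 1 kb of an end of a non-coding gene. Neither count was computed over all genes.

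Along the 35 genes with a strand, inner intervals leaned toward the start in the fibrillar class and, less so, in the type IV class. Of 56 intervals in fibrillar genes, 26 (46.4%) lay in the 5′ portion when the gene is cut into 3 equal parts, 21 in the middle and 9 (16.1%) in the 3′ portion. In type IV genes the counts were 17 (40.5%), 15 and 10 (23.8%) of 42, and in other genes 80, 105 and 74 of 259. Over all protein-coding genes the shares were 31.8%, 35.1% and 33.1%. In Col3a1 all 5 inner intervals lay in the 5′ part, within 26.3% of the gene length from the start. In Col24a1 they ran from 10.9% to 99.5% of the gene length. Intervals of 1 gene are not independent, and Col24a1 and Col27a1 gave most of those in the fibrillar class. The fibrillar count includes Col27a1 intervals at 0 and 0.858 kb from its listed start, which lies inside the annotated gene.

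**Figure D4:**
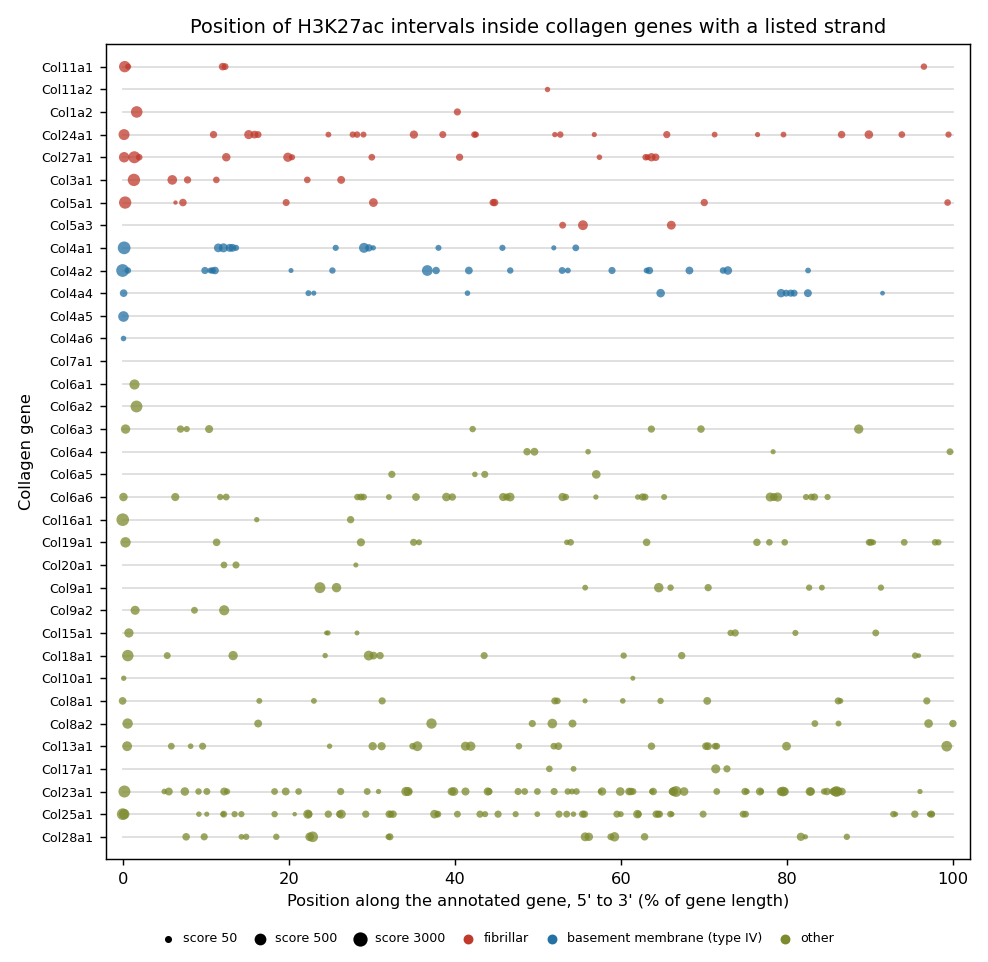
Position of each H3K27ac interval inside the 35 collagen genes with a listed strand, as percent of gene length from the 5′ to the 3′ end, with dot size for the score and colour for the class. Fibrillar genes have 26 of 56 inner intervals in the 5′ portion, Col23a1 and Col25a1 are filled along their length, and Col4a5 and Col4a6 show a dot at the start alone.

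Promoter composition was compared over the 38 windows of 300 bases listed for 35 collagen genes. They held a median of 11.5 CpG dinucleotides (quartiles 5.25 and 17.5), against 13 (quartiles 4 and 24) over 21263 windows of protein-coding genes. Among windows with 10 or more CpG, 18 of 22 collagen windows had an interval within 1 kb of the start, against 93.6% of all such windows, with median scores of 1477 and 3165. Among windows with fewer than 10 CpG, the collagen count was 11 of 16, against 27.4%, with median scores of 571 and 377. The split at 10 was chosen after the files had been seen. CpG-poor collagen windows were thus marked more often than other CpG-poor windows, and CpG-rich ones had lower scores than other CpG-rich windows. The windows were not matched for gene length, although collagen genes are long and longer genes were marked more often. Both Col6a2 windows, with 16 and 6 CpG, took their score of 1894 from the same interval.

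The 3 motifs, each searched on both strands, were counted in the same windows. GGGCGG, the core of Sp1 sites, was found in 23 of 38 collagen windows, against 46.2% of all, CCAAT in 13, against 38.2%, and TATAAA in 5, against 12.6%. Among collagen windows with a score of at least 1000, CCAAT was found in 8 of 14, against 38.6% of all such windows, GGGCGG in 12, against 69.1%, and TATAAA in 1, against 5.53%. Among collagen windows with a score under 1000, CCAAT was found in 1 of 15, against 34.1%, GGGCGG in 6, against 51.7%, and TATAAA in 2, against 9.75%. The windows of Col4a1 and Col4a2 overlap, as do the 2 of Col6a2, so they are not separate observations. A match is only a run of letters in this window.

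Genes that act on collagens were put in 6 lists by textbook role, for modification and folding, export, cleavage, cross-linking, fibril binding and reception. Of the 57 genes of all 6 lists, 50 were marked at an end (87.7%), against 65.0% of all protein-coding genes. The 57 had a median length of 35.4 kb, and 77.3% of all genes of 30 to 100 kb were marked. The 65.0% is also the share to set beside the count of each list. The 50 marked genes had a median best score of 1694.5. Of these 50, 9 shared an end interval with another protein-coding gene, a share that was not computed for all genes. The enzymes and chaperones that modify and fold chains in the endoplasmic reticulum were marked in 17 of 18, with a median of 2575. A score of at least 1000 was reached by 14, against 45.5% of all protein-coding genes. Plod3, a lysyl hydroxylase, had 8313 and P3h3, a prolyl 3-hydroxylase family member, 6337, both in intervals near a neighbouring gene end as well. Fkbp14 was unmarked at its annotated ends but held an interval with a score of 2590 inside. Genes for export of the large procollagens were marked in 6 of 7, led by Klhl12 with 5398 and Mia3, the cargo receptor TANGO1, with 3693. Mia2 was unmarked at its ends and held an interval with a score of 6089 inside. Genes for propeptide cleavage were marked in 7 of 8, led by Pcolce with 3383 and Pcolce2 with 3360, both enhancers of C-propeptide removal, and not Tll2.

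The other 3 lists had lower medians than these. The lysyl oxidases that cross-link fibrils were marked in 5 of 5, with a median of 954, from 3622 at Loxl3, whose intervals also lie at neighbouring genes, and 979 at Loxl2. Proteins that bind fibrils were marked in 7 of 9, with a median of 624, led by fibronectin (Fn1) with 5023 and Tgfbi with 1307, and not Fmod or Tnxb. Collagen receptors were marked in 8 of 10, with a median of 644.5, led by Itgb1, the common beta chain, with 8684 and the endocytic receptor Mrc2 with 4451. The platelet receptor Gp6 and the leukocyte receptor Lair1 were unmarked.

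**Figure D5:**
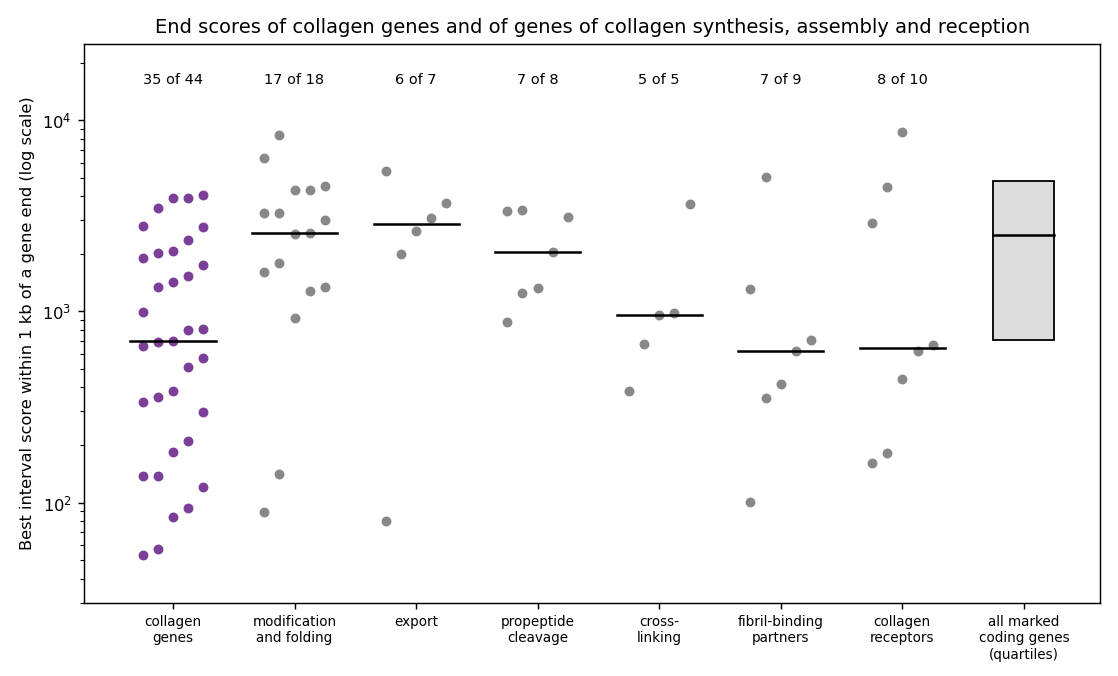
Best H3K27ac interval score within 1 kb of a gene end (log scale) for collagen genes and for 6 lists of genes that act on collagens, with the number marked above each column, black lines for medians and a box for the quartiles of all marked protein-coding genes. The median is 696 for collagen genes and 2575 for modification and folding genes, against 2494 for all marked genes.

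Markers of the cells that a sorted sample could hold were read from the same list, since type IV collagens are also made by vessels and epithelia. Over all protein-coding genes, 65.0% were marked at an end. Cranial crest mesenchyme markers were marked at an end in 11 of 12, with a median score of 1407 and a range of 87 to 4697. Tfap2a lacked an end interval but held one with a score of 2718 inside. Endothelial markers were marked in 9 of 10, with scores of 49 to 435, and Egfl7 lacked one but held an interval with a score of 2251 inside. Epithelial markers were marked in 4 of 8, with scores of 207 to 1367, and Cdh1, Esrp1, Cldn6 and Trp63 lacked one. Blood markers were marked in 3 of 8, with scores of 464 to 1492, and both globin genes and Gata1 lacked one. The score of 3918 at Col4a1 and Col4a2 was above every score at the ends of or inside the genes of the endothelial, epithelial and blood lists. That score lies at a head-to-head pair, where other such pairs had a median best score of 3755. The comparison is thus between unlike gene ends and does not show which cells gave the interval. The part of other cell types in the collagen intervals was not tested.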

How the data were processed

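H3K27ac ChIP-seq intervals were deposited as 1 list. Per the text deposited with it, the alignments of the 4 WT libraries were merged and MACS2 2.1.3.3 was run without a model (shift 0, extsize 141, q-value 0.001), keeping every duplicate. That text names no control. The submitters' processing notes name bcl2fastq 2.17, Bowtie 1.1.1 and the builds GRCm38 and mm10. The deposited score of each interval is the authors' value and grows with merged depth, which is unknown, so no interval of counting error could be given. Reads piled up by amplification or at repeats can thus enter the list.

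Gene ends came from a RefSeq table of GRCm38.p6. Strand and start sites came from RefSeq promoter windows, which matched 35 of 44 collagen genes and 17492 of 21887 protein-coding genes. Intervals within 1 kb of a gene end and inside the gene were counted with Python 3.11.15 and pandas 2.3.3, and the counting was tested on simulated intervals. Members, classes and gene lists were chosen by symbol and textbook role with earlier results of these data known. All fibrillar and type IV genes are named, and of the others the 3 highest and 3 lowest end scores, the unmarked genes and the 5 genes with most intervals inside by count and by length. Of the related lists, the 2 highest scores and the unmarked genes are named. Further genes were named after their values were seen. Alternatives changed the window, the overlap, the score limit, the end used and the class members.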

Additional observations from a re-analysis of the deposited data

How the results depend on the processing

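Of 50 values recomputed under other settings, 41 stayed within 1.5 times the value reported and 9 moved further. With only intervals over the outermost base at either annotated gene end counted, 18 of 44 collagen genes were marked (4 of 11 fibrillar and 9 of 27 other). The share of all genes fell to 32.6%. With scores of at least 100, the intervals inside were 45 in fibrillar, 26 in type IV and 177 in other collagen genes. In the higher-scored 50% of intervals they were 40, 22 and 147. Marked collagen genes numbered 34 with a window of 500 bp, against 61.5% of all genes, and 35 with 2.5 kb, against 70.8%. They numbered 31 with scores of at least 100, against 61.2%, and 31 in the higher-scored 50%, against 60.5%. No paired analysis was possible because the list holds 1 set of intervals called on merged reads. For the same reason no library could be left out. Unknown depth, the absence of replicates and gene ends in place of start sites limit all values.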

Other observations

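The other neighbouring collagen genes shared no interval at their facing ends. Col9a1 and Col19a1 lie tail to tail 4.94 kb apart, with 0 intervals between them. Col3a1 and Col5a2 lie 24.6 kb apart, with 3 intervals between them and a best score of 120. Col6a6, Col6a5 and Col6a4 run in the same direction, with 3 and 1 intervals overlapping the gaps of 27.8 and 27.9 kb. The 3 include the Col6a6 start interval with a score of 210, which lies mostly inside that gene. The gap of 85.2 kb between Col6a2 and Col6a1, which also run in the same direction, held 18 intervals with a best score of 888.

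The 8 collagen genes of cartilage, which cross the structural classes, were marked at an end in 6 cases, against 65.0% of all protein-coding genes. Their end scores had a median of 540 and a range of 53 to 2012, and they held a median of 1.14 intervals per 10 kb. Within type IX, Col9a2 had 296 at its start and a higher score of 567 inside the gene, Col9a3 had 384, and Col9a1 had its highest score of 1001 at the downstream start.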
